A study of Homo sapiens with 12 samples.

Results

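Solute carriers are the largest group of membrane transport proteins in human cells, and 72 of the 3699 genes in the deposited table were taken here as solute carriers. They were taken by symbol, as every gene whose name is SLC or SLCO followed by a digit and holds no hyphen, leaving out the iron exporter SLC40A1, the zinc transporter SLC30A2, the cystine exchanger SLC7A11 and the glucose carrier SLC2A3. Those 4 are also listed, and relatives without an SLC symbol are counted apart. The 72 genes belong to 31 numbered families, which were set in 13 classes by what the family carries, and 68 of them had enough reads to be tested.

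Solute carriers move small molecules across the plasma membrane and the membranes of organelles without burning ATP themselves, either down a gradient or by coupling one solute to the gradient of another such as sodium or protons. The number after SLC names a family that shares sequence and often a substrate, so that SLC1 and SLC7 carry amino acids, SLC2 sugars, SLC16 lactate and other monocarboxylates, SLC9 protons against sodium, SLC39 zinc and SLC25 metabolites of the mitochondrial matrix. In intestinal cells some of them absorb nutrients from the gut, and in carcinoma lines the same families supply amino acids and export lactate.

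The cells were SW480, an established human line derived from a colorectal adenocarcinoma, and their RNA was sequenced in 12 libraries of 4 groups. The cell line field of the labels gives SW480 for all 12, while their free-text descriptions count upward by one from SW480 to SW491 along the samples. There were 3 untreated libraries, 3 from cells given PUE, 3 from cells given GLY and 3 from cells given both (GLY_PUE). The abbreviations are used as the labels give them, and no dose is given in the sources used here. All cells grew for 12 h in medium with 10% serum before the treatment period, which lasted another 12 h. The labels of the 3 GLY libraries give 12, 13 and 14 h instead, while those of the PUE and GLY_PUE libraries give 12 h. The series title places the treatments in a study of a herbal decoction and Wnt signalling. Whether replicates were separate cultures is not stated, and p-values here measure only how far the libraries of a group scatter, which may be technical scatter.

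The authors' table is a selected list. All 3699 listed genes had passed a fold limit (log2 ratio beyond 1 either way) together with a q-value limit (0.001) in some comparison that the authors made, so a count of changed transporters is not independent evidence of a response, and transporters absent from the table were not analysed here. Levels are given as the deposited expression value, which has no unit in its header. It is read as FPKM, fragments scaled to transcript length and library total. For many of 625 well-covered genes, count and value stood in nearly one ratio per gene up to a library factor. A TPM scale cannot be told apart from FPKM by these values. Some members departed from one ratio. SLC44A1 had 246 counts at 1.2 FPKM in GLY replicate 1 and 671 at 6.42 in GLY replicate 2. Gaps in FPKM can therefore differ from gaps in the counts, which were tested. Changes are log2 fold changes relative to library totals of 19.4 to 21.1 M reads, recovered from the ratios of the 625 genes. Scaling by TMM within the table, which assumes that most listed genes do not change, raises every log2 fold change by about 1.13 for GLY and 1.01 for GLY_PUE against untreated. Calls in GLY and GLY_PUE are therefore counted under both scalings, and TMM values are given for many of the genes described.

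Some libraries stood apart. Untreated replicates 1 and 2 differed by a chi-square of 2.62 per gene, but replicates 1 and 3 by 73.1, and untreated replicate 3 resembled PUE replicate 3 (3.04). GLY and GLY_PUE replicate 3 differed by 10.97, and untreated and GLY replicate 3 by 511. GLY replicate 1 differed from GLY replicate 2 by 157 per gene. Of 12 markers of intestinal epithelium 3 were in the table, the regulator CDX2, the brush border protein VIL1 and the stem cell receptor LGR5, and their summed level ran from 25.2 to 33.0 FPKM in untreated and from 4.18 to 7.29 in GLY libraries. Of 5 leukocyte markers only CD68 was listed, at 2.08 to 3.27 FPKM in untreated and 9.43 to 13.5 in GLY libraries. None of 5 fibroblast, 4 endothelial or 8 retinal markers was listed (the extraction protocol mentions retinas). The part of these marker levels in the results below was not tested, and in bulk RNA fewer cells of a kind and less RNA per cell cannot be told apart.

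The transporters spanned a wide range of levels. In untreated cells the median of the 72 was 3.02 FPKM, 3 stood at 100 FPKM or more, 16 at 10 or more, and 24 under 1. The highest was SLC1A5 (874 ± 145 FPKM; SD, n = 3 here and below), the glutamine carrier ASCT2, followed by SLC3A2 (363 ± 82.2), the heavy chain that anchors several amino acid exchangers at the cell surface, and SLC7A8 (139 ± 32.6), one of the light chains it binds. The lactate carrier SLC16A1 (70.7 ± 22.9) and the heme transporter SLC48A1 (49.3 ± 1.77) came next. The difference between SLC16A1 and SLC48A1 was smaller than the SD of SLC16A1, while SLC1A5, SLC3A2 and SLC7A8 ranked in this order in untreated replicates 1, 2 and 3. SLC1A5 and SLC3A2 together held 63.6% to 67.3% of the summed level of the 72 genes in untreated libraries and 74.5% to 82.3% in GLY libraries, and the other 70 genes summed to 576.0 to 748 FPKM and 351 to 379 FPKM in the 2 groups.

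With GLY most transporters were lower and 9 were higher. Of 68 tested, 47 fell and 9 rose against untreated (edgeR's quasi-likelihood test with Benjamini-Hochberg adjustment over all 3429 tested genes, adjusted p under 0.05). Of all tested genes 64.6% fell and 19.7% rose. The calls cover 82.4% of the members and 84.3% of all tested genes, and 56 members had groups that did not overlap in counts scaled by the library totals, the measure behind each such count, where 83.3% of all genes did. The median log2 fold change was −1.20 for the members and −1.15 for all tested genes. With GLY_PUE, which is compared with the same 3 untreated libraries, 41 fell and 9 rose (57.1% and 20.2% of all genes), which is 73.5% of members and 77.3% of all genes, and 60 did not overlap (87.3% of all genes). The median was −1.01 for the members and −1.03 for all. The shares and medians of the transporters thus lie near those of the whole list. The authors' deposited table marks 47 members lower and 8 higher in GLY, and 35 lower and 10 higher in GLY_PUE. In GLY these are 55 of the 72 members, where 2878 of all 3699 listed genes are marked. In GLY_PUE they are 45 of the 72 members, where 2552 of the 3699 are marked. The marks are thus not particular to transporters.

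The split of higher against lower depends on the scaling. Under TMM 11 members were called higher and 8 lower in GLY, and 11 higher and 6 lower in GLY_PUE, with medians of −0.08 and −0.02. Of all tested genes TMM called 23.7% higher and 10.1% lower in GLY and 23.8% and 11.5% in GLY_PUE, and both medians were −0.02. The 9 that rose under library totals rose under TMM too, and TMM added the bicarbonate carrier SLC4A7 and the organic anion carrier SLCO1B3. The lower calls that held under both scalings were SLC7A8, SLC1A3, SLC16A6, SLC16A10, SLC25A12 and SLC4A8 in GLY and in GLY_PUE, and SLC44A1 and SLC35D3 in GLY. No other member called lower against untreated was called under TMM. Side by side, 46 members were called in both treatments and 8 in neither. The matching shares of all tested genes are not given here. Each treatment alone called 84.3% and 77.3% of all genes, against the same untreated libraries, so these counts say nothing particular to transporters.

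**Figure D1:**
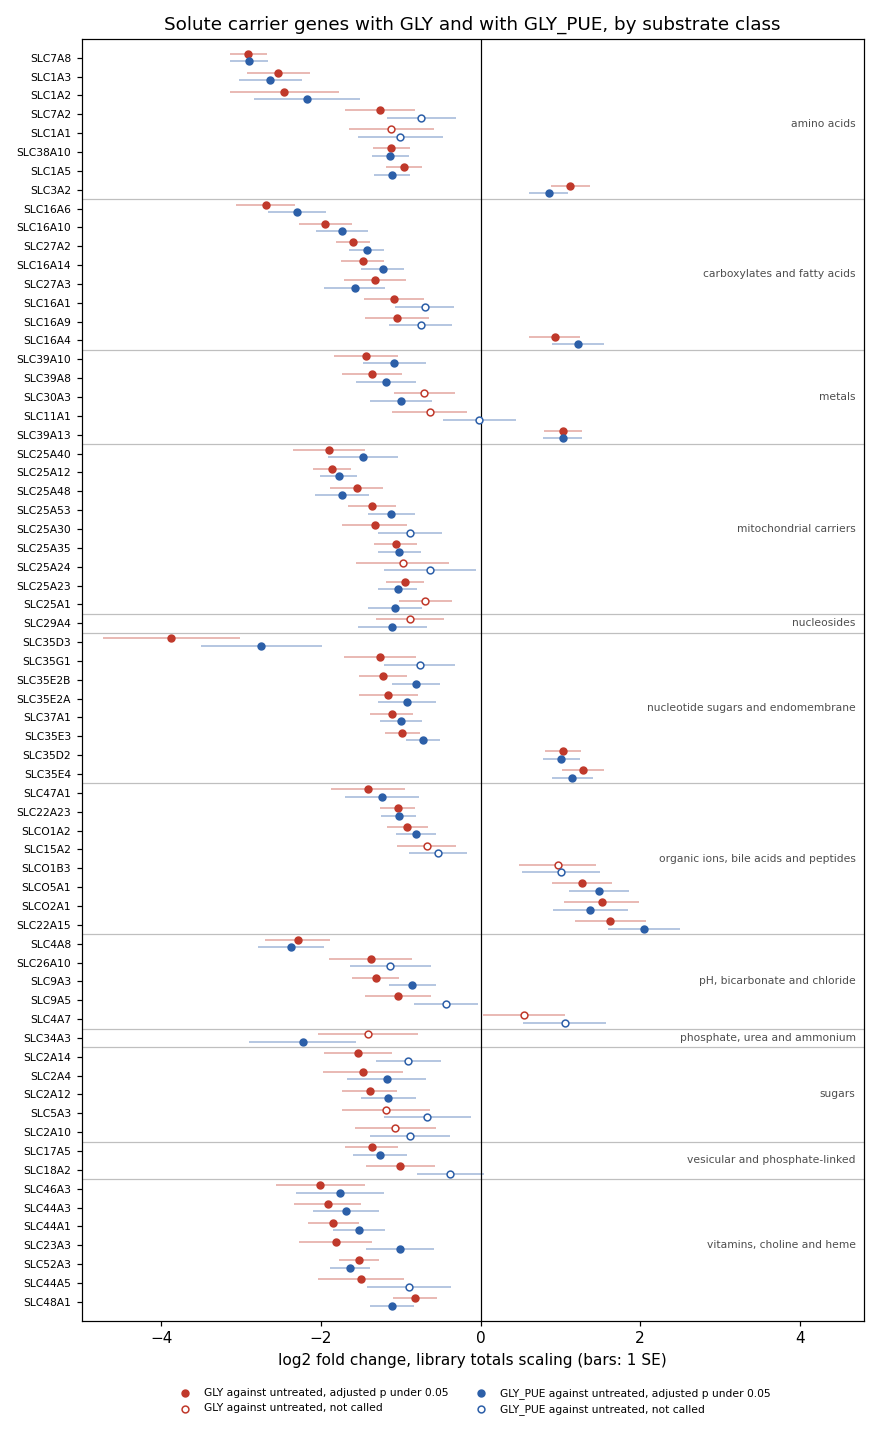
Log2 fold change (x axis, library totals scaling, bars 1 SE) of tested solute carrier genes (y axis) grouped by substrate class, with GLY in red and GLY_PUE in blue against the same untreated libraries. Filled points have an adjusted p under 0.05. In GLY 47 filled points lie left of 0, and the red and blue points of each gene called in GLY lie on the same side.

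Class counts here and below stand beside 64.6% lower and 19.7% higher of all tested genes in GLY, and 57.1% and 20.2% in GLY_PUE. Under TMM those shares were 10.1% and 23.7% in GLY, and 11.5% and 23.8% in GLY_PUE. The classes are small, and whether any class differs from all genes was not tested. Among the 8 amino acid transporters 6 fell and 1 rose with GLY, and under TMM 2 fell and 1 rose. The one that rose was SLC3A2, the CD98 heavy chain. It stood at 411, 411 and 269 FPKM in untreated replicates 1 to 3, at 409.6, 401 and 285 with PUE, at 1036, 686 and 690.4 with GLY and at 709, 639 and 648 with GLY_PUE. The GLY and GLY_PUE libraries all lay above the untreated and PUE libraries, and the 2 libraries numbered 3 without GLY were the lowest (1.12, SE 0.24, adjusted p = 0.00176 in GLY, 0.85, SE 0.24, adjusted p = 0.00813 in GLY_PUE, and 2.30 and 1.83 under TMM).

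SLC7A8, the LAT2 light chain that pairs with this heavy chain to exchange neutral amino acids, moved the other way. Its level was 119, 123 and 177 FPKM in untreated, 131, 130.2 and 172 in PUE, 21.6, 19.1 and 17.7 in GLY and 17.6, 19.9 and 19.8 in GLY_PUE libraries. GLY and GLY_PUE libraries sat close together and far below the rest (−2.91, SE 0.24, adjusted p = 1.06e-05, and −2.90, SE 0.24, adjusted p = 9.41e-06), and the call held under TMM (−1.72 and −1.87). SLC1A5, the glutamine carrier, fell from 776, 804 and 1041 FPKM in untreated to 596, 395 and 439 in GLY and 388, 373 and 466 in GLY_PUE libraries. These groups did not overlap (−0.96, SE 0.22, adjusted p = 0.00246, and −1.11, SE 0.22, adjusted p = 0.00118), but under TMM the difference had the other sign in GLY (0.24) and was −0.10 in GLY_PUE, neither past the threshold.

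The glutamate carriers of family SLC1 were low in these cells. SLC1A3, or EAAT1, had 2.29, 2.63 and 4.56 FPKM in untreated, 0.31, 0.52 and 0.84 in GLY and 0.62, 0.33 and 0.65 in GLY_PUE libraries, with no overlap (−2.54, SE 0.40, adjusted p = 0.000279, and −2.63, SE 0.40, adjusted p = 0.000249). It was lower under TMM as well (−1.40 and −1.59). SLC1A2, or EAAT2, fell to 0.1, 0.09 and 0.26 FPKM in GLY from 0.53, 0.47 and 1.45 in untreated libraries (−2.46 and −2.18). Its size rests on single libraries: without untreated replicate 3 it was −1.75 in GLY and −1.47, no longer called, in GLY_PUE. Without GLY replicate 3 it was −3.11, and without GLY_PUE replicate 3 −2.88. SLC1A1, or EAAT3, did not pass (−1.12, SE 0.53, adjusted p = 0.0639, and −1.005, SE 0.53, adjusted p = 0.0939). With replicate number as a block it passed in GLY_PUE (−0.99, adjusted p = 0.0163), and in GLY without untreated replicate 1 (−1.38) or GLY replicate 3 (−1.53). SLC38A10, of the sodium-coupled neutral amino acid family, fell by 1.12 in GLY and by 1.13 in GLY_PUE on the log2 scale (0.05 and −0.14 under TMM). The arginine and lysine carrier SLC7A2 was called in GLY (−1.26, SE 0.44, adjusted p = 0.0187), not without untreated replicate 3 (−1.03), and not in GLY_PUE (−0.74).

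**Figure D2:**
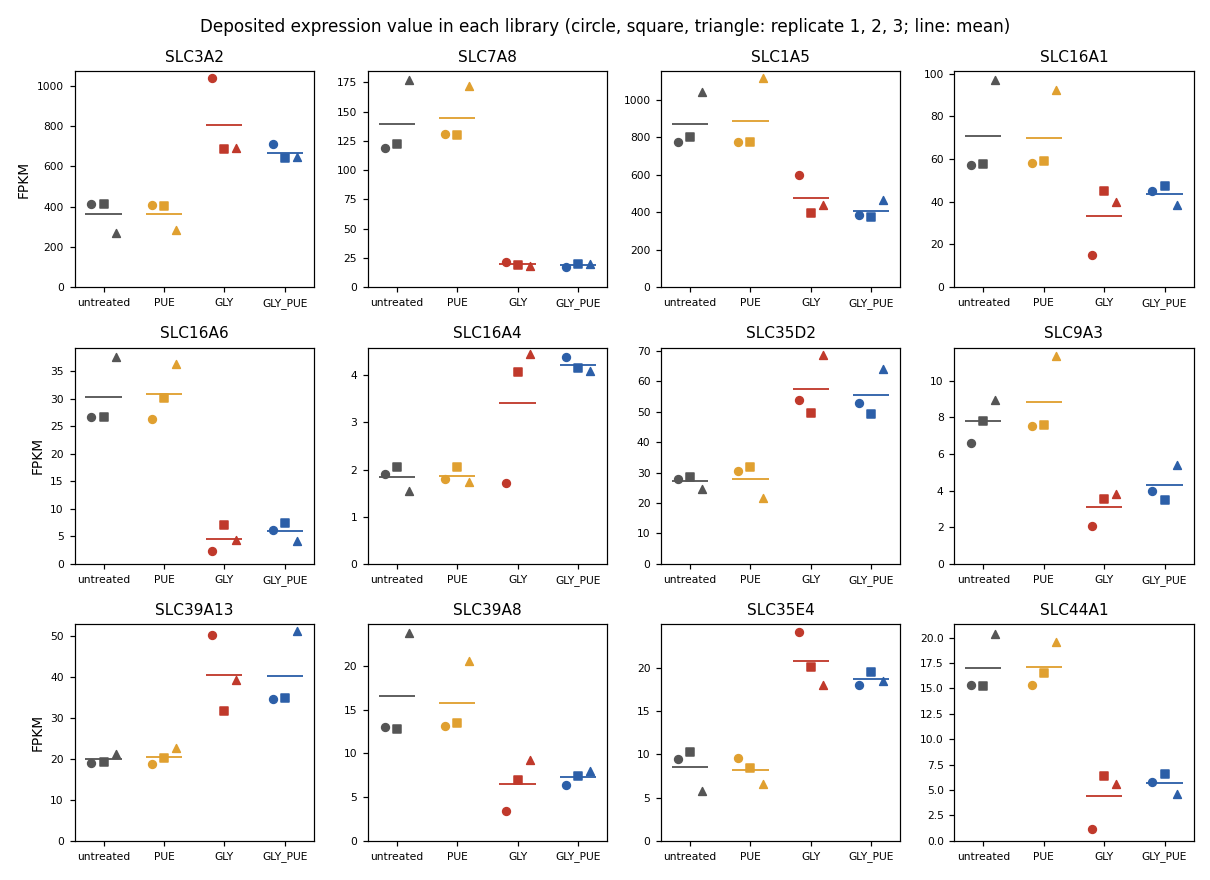
Deposited FPKM value (y axis, from 0, each panel on its own scale) of 12 solute carrier genes in the 12 libraries, by group (x axis); circle, square and triangle are replicates 1, 2 and 3 and the line is the mean. SLC3A2, SLC35D2, SLC39A13 and SLC35E4 are higher in all GLY and GLY_PUE libraries than in all others, SLC7A8 and SLC16A6 lower, and GLY replicate 1 lies apart in SLC16A1, SLC16A4 and SLC44A1.

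Promoter sequence was read for the members from a RefSeq table (GRCh38.p14), which held 58 of the 72. The 250 bases before the start site given there were searched on both strands for 7 motifs, and other start sites of the same genes were not examined. The antioxidant response element, written as TGACNNNGC, is bound by NRF2 and its partners, which drive genes of glutathione synthesis. It was found in 10.9% of all 35116 promoters in the table, in 2 of the 6 members that rose with GLY and had a window, SLC3A2 and SLC35E4, and in 2 of 36 that fell. The windows of these 2 and of SLC7A8, the heavy chain's partner that fell, are shown 5′ to 3′ on the gene's strand. Capitals mark the match to the antioxidant response element, and matches to the metal response element core given below are not marked. SLC3A2 lies at chr11:62881449-62881698 on the plus strand, SLC35E4 at chr22:30635531-30635780 on the plus strand and SLC7A8 at chr14:23155321-23155570 on the minus strand.
SLC3A2: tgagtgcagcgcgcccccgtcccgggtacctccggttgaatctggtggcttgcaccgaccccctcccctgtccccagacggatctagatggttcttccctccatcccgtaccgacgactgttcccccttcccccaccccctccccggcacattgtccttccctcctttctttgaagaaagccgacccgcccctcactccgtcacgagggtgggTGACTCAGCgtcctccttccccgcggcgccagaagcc
SLC35E4: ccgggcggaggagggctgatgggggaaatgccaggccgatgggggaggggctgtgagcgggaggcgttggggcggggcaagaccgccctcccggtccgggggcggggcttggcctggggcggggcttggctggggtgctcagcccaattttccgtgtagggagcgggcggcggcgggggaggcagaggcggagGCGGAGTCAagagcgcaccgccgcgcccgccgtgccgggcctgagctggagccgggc
SLC7A8: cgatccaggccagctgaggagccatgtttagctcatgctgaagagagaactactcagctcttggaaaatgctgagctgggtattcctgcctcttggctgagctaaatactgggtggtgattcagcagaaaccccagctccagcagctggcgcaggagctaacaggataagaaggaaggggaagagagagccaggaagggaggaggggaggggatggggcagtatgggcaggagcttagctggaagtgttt
The SLC3A2 match lies on the plus strand of the gene and that of SLC35E4 on the other strand. The SLC7A8 window holds none of the 7 motifs. The core of the amino acid response element, TGATGNAA, was in none of the 6 windows of members that rose, in 2 of 36 that fell and in 3.14% of all promoters. The core site of the Wnt effectors TCF and LEF, CTTTGNT, was in none of the 6, in 5 of the 36 and in 13.2% of all promoters. The metal response element core, TGCNCNC, was in 5 of the 6, SLC3A2 and SLC35E4 among them, in 20 of the 36 and in 49.1% of all promoters. The heat shock element core, GAANNTTC (0 of 6, 2 of 36, 5.78% of all), the E-box, CACGTG (0 of 6, 3 of 36, 6.34% of all), and the endoplasmic reticulum stress element (0 of 6, 0 of 36, 0.0740% of all), completed the search. A match describes letters in this window only, and no match says only that these letters are not in it.

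In the class of carboxylates and fatty acids 7 of 8 tested members fell with GLY and 1 rose, and under TMM 2 fell and 1 rose. Of all tested genes 64.6% fell and 19.7% rose with GLY, and 10.1% and 23.7% under TMM. SLC16A1, or MCT1, which carries lactate and pyruvate with protons, went from 57.4, 57.6 and 97.2 FPKM in untreated to 15.0, 44.9 and 40.1 in GLY and 44.8, 47.5 and 38.2 in GLY_PUE libraries. GLY replicate 1 was the lowest, and neither treated group overlapped the untreated one. The GLY call (−1.09, SE 0.37, adjusted p = 0.0181) was lost without untreated replicate 3 (−0.79) and had the other sign under TMM (0.02), and GLY_PUE did not pass (−0.70, SE 0.37, adjusted p = 0.0959). SLC16A6, a family member linked to ketone body transport, fell further. It had 26.7, 26.6 and 37.5 FPKM in untreated, 26.3, 30.04 and 36.3 in PUE, 2.39, 7.14 and 4.3 in GLY and 6.23, 7.42 and 4.16 in GLY_PUE libraries. Every GLY and GLY_PUE library lay below 8 FPKM and every other one above 26 (−2.69, SE 0.37, adjusted p = 0.000135, and −2.30, SE 0.37, adjusted p = 0.000334; −1.58 and −1.26 under TMM).

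SLC16A10, which carries aromatic amino acids, also fell under both scalings. It went from 2.09, 3.39 and 4.83 FPKM to 1.01, 0.87 and 1.13 in GLY and 0.82, 1.07 and 0.83 in GLY_PUE libraries (−1.94, SE 0.33, and −1.74, SE 0.33; −0.78 and −0.70 under TMM). SLC16A4, whose substrate is not settled, was the member of the class that rose. It had 1.9, 2.06 and 1.54 FPKM in untreated, 1.71, 4.06 and 4.44 in GLY and 4.38, 4.15 and 4.09 in GLY_PUE libraries. GLY replicate 1 lay within the untreated range, and the other 5 treated libraries lay above it (0.93, SE 0.32, adjusted p = 0.0193, and 1.23, SE 0.33, adjusted p = 0.00563). The GLY call was lost without GLY replicate 2 (0.79), GLY replicate 3 (0.67) or untreated replicate 3 (0.83).

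The fatty acid enzymes and carriers SLC27A2 and SLC27A3, which also activate long chains to their CoA forms, both fell. SLC27A2 had 13.0, 13.2 and 14.0 FPKM in untreated, 3.51, 5.31 and 4.42 in GLY and 4.9, 5.12 and 4.87 in GLY_PUE libraries, with little spread and no overlap (−1.60, SE 0.22, and −1.43, SE 0.21). SLC27A3 fell by 1.32 in GLY, by 1.99 without GLY replicate 1, and by 1.58 in GLY_PUE on the log2 scale. Under TMM neither gene was called in either treatment (SLC27A2 −0.47 and −0.42, SLC27A3 −0.08 and −0.57). SLC16A14 fell in both (−1.48 and −1.23). SLC16A9, linked to carnitine release, was called in GLY alone (−1.05, SE 0.40, adjusted p = 0.0274). That call was lost without GLY replicate 1 (−0.80), GLY replicate 3 (−0.93), untreated replicate 1 (−0.98) or untreated replicate 2 (−0.89). In GLY_PUE SLC16A9 passed with the replicate block (−0.77, adjusted p = 0.0206). SLC16A8 and SLC16A11 were not tested for low counts, SLC16A11 with 3 reads over the GLY and 14 over the untreated libraries (ratio 0.203, exact 95% interval 0.0375 to 0.729, counting error only).

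Among the carriers of protons, bicarbonate and chloride 4 of 6 tested fell with GLY and 2 with GLY_PUE, and under TMM 1 fell in each. SLC9A3, or NHE3, the exchanger of the intestinal brush border that absorbs sodium, fell. It had 6.6, 7.77 and 8.96 FPKM in untreated, 2.06, 3.53 and 3.79 in GLY and 3.99, 3.49 and 5.41 in GLY_PUE libraries, without overlap (−1.32, SE 0.30, adjusted p = 0.00211, and −0.86, SE 0.29, adjusted p = 0.019). Under TMM it was −0.20 and 0.15, so that the sign in GLY_PUE changed. The GLY_PUE call was lost without GLY_PUE replicate 1 (−0.81), GLY_PUE replicate 2 (−0.73) or untreated replicate 3 (−0.74). SLC9A5, an exchanger best known from brain, was called in GLY (−1.03), and that call was lost without GLY replicate 2 (−0.998), GLY replicate 3 (−0.78) or untreated replicate 3 (−0.87). It had the other sign under TMM (0.17).

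The bicarbonate carriers listed were SLC4A8 and SLC4A7. SLC4A8, which exchanges chloride for sodium and bicarbonate, had 2.43, 2.26 and 5.33 FPKM in untreated, 0.47, 0.67 and 0.86 in GLY and 0.7, 0.61 and 0.46 in GLY_PUE libraries. It fell without overlap and under both scalings (−2.29, SE 0.41, adjusted p = 0.000562, and −2.38, SE 0.41, adjusted p = 0.000512; −1.13 and −1.32 under TMM). SLC4A7, the sodium bicarbonate cotransporter NBCn1, had 4.36, 4.3 and 3.58 FPKM in untreated, 1.03, 8.4 and 8.4 in GLY and 7.86, 9.56 and 8.07 in GLY_PUE libraries. Of the 6 treated libraries 5 lay above all untreated ones and GLY replicate 1 below them. It did not pass under library totals (0.55, SE 0.52, adjusted p = 0.318, and 1.05, SE 0.52, adjusted p = 0.0771), passed in GLY without GLY replicate 1 (1.04), and rose under TMM (1.56 and 2.05). SLC26A10, of the anion exchanger family, was called in GLY at 0.06 to 0.16 FPKM (−1.38), and that call was lost without GLY replicate 2 (−1.33), GLY replicate 3 (−1.10), untreated replicate 2 (−0.96) or untreated replicate 3 (−1.34). In GLY_PUE it passed only without untreated replicate 1 (−1.48) among the libraries left out in turn. SLC26A9 was not tested, with 1 read in GLY, 3 in GLY_PUE and 19 in untreated libraries (ratios 0.05, exact 95% interval 0.00120 to 0.314, and 0.15, interval 0.0285 to 0.510, counting error only). The untreated reads were 7, 11 and 1 in replicates 1 to 3. Untreated replicate 3 thus held 1 read, as did GLY replicate 3 and each GLY_PUE library, and the groups overlap.

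Zinc carriers moved both ways. SLC39A13, or ZIP13, which moves zinc from the Golgi and vesicles to the cytosol, rose from 19.1, 19.4 and 21.3 FPKM in untreated to 50.4, 31.6 and 39.4 in GLY and 34.6, 35 and 51.3 in GLY_PUE libraries. No treated library fell in the untreated range, and the spread between treated libraries was wider than between untreated ones (1.03, SE 0.24, adjusted p = 0.00273, and 1.03, SE 0.24, adjusted p = 0.00305; 2.23 and 2.03 under TMM). SLC39A8, or ZIP8, which brings zinc and manganese into the cell, fell from 13.0, 12.8 and 23.8 to 3.44, 6.97 and 9.24 FPKM in GLY and 6.44, 7.37 and 7.98 in GLY_PUE libraries (−1.36, SE 0.38, adjusted p = 0.00618, and −1.19, SE 0.37, adjusted p = 0.0131). The groups did not overlap, but neither call held under TMM (−0.25 and −0.15), and in GLY_PUE it was lost without GLY_PUE replicate 1 (−1.09) or untreated replicate 3 (−0.83).

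SLC39A10, or ZIP10, another zinc importer of the plasma membrane, also fell in both (−1.43 in GLY and −1.08 in GLY_PUE; −0.34 and −0.04 under TMM). Its GLY_PUE call was lost without GLY_PUE replicate 1 (−1.03), GLY_PUE replicate 3 (−1.01) or untreated replicate 3 (−0.84). SLC30A3, a vesicular zinc loader, was called in GLY_PUE (−0.998, SE 0.39, adjusted p = 0.0322) and not in GLY (−0.70, SE 0.38, adjusted p = 0.0984), and under TMM it was above 0 in both (0.54 and 0.02). GLY replicate 1 held 4.98 FPKM, within the untreated range, against 2.89 and 1.31 in replicates 2 and 3, and without it SLC30A3 passed in GLY (−1.24). The GLY_PUE call was lost without each of 5 libraries: GLY_PUE replicate 1 (−1.10), 2 (−1.08) or 3 (−0.82), and untreated replicate 2 (−0.92) or 3 (−0.99). SLC11A1, the divalent metal carrier of macrophages, did not pass in either (−0.64 and −0.01).

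Of the 8 carriers of nucleotide sugars and related endomembrane carriers 2 rose and 6 fell with GLY (2 rose and 1 fell under TMM). SLC35D2, which brings UDP-N-acetylglucosamine and other nucleotide sugars into the Golgi, had 28.0, 28.7 and 24.6 FPKM in untreated, 53.9, 49.4 and 68.6 in GLY and 52.9, 49.3 and 64.0 in GLY_PUE libraries (1.04, SE 0.23, adjusted p = 0.00192, and 1.01, SE 0.23, adjusted p = 0.00235). SLC35E4, a relative without a settled substrate, had 9.42, 10.3 and 5.73 FPKM in untreated, 24.1, 20.1 and 18.0 in GLY and 18.0, 19.5 and 18.5 in GLY_PUE libraries (1.29, SE 0.26, adjusted p = 0.00122, and 1.15, SE 0.26, adjusted p = 0.0024). For both genes the treated libraries lay above all untreated ones, and both were higher under TMM (SLC35D2 2.16 and 2.00, SLC35E4 2.44 and 2.13). SLC35D2 was highest in the number 3 libraries of the treated groups and lowest in that of the untreated group.

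Among those that fell, SLC35E3 went from 4.17, 5.04 and 3.58 to 1.81, 2.57 and 2.29 FPKM in GLY and 2.71, 3.13 and 2.6 in GLY_PUE libraries (−0.98, SE 0.21, adjusted p = 0.00182, and −0.72, SE 0.21, adjusted p = 0.00953), with the other sign under TMM (0.15 and 0.28). SLC37A1, which exchanges glucose 6-phosphate for phosphate in the endoplasmic reticulum, fell too (−1.11 and −0.999; 0.02 and −0.03 under TMM). SLC35E2A and SLC35E2B are near-identical copies whose reads the authors' counting may have split, so their values are uncertain. They were at −1.16 and −1.22 in GLY, and at −0.92 and −0.81 in GLY_PUE, where TMM gave the other sign (0.09 and 0.21). In GLY the SLC35E2A call was lost without untreated replicate 3 (−0.87). In GLY_PUE the SLC35E2A and SLC35E2B calls were lost without GLY_PUE replicate 1 (−0.77 and −0.68), GLY_PUE replicate 2 (−0.75 and −0.73) or untreated replicate 3 (−0.64 and −0.61).

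SLC35D3 was near the limit of these depths, with 3 reads over the GLY libraries and 47 over the untreated ones. The ratio of reads, scaled by library totals, was 0.0606 (exact 95% interval 0.0121 to 0.188, counting error only), and 31 of the 47 reads came from untreated replicate 3. The fitted log2 fold changes were −3.88 in GLY and −2.75 in GLY_PUE, and without untreated replicate 3 they were −2.92 and −1.79. Without GLY_PUE replicate 3 the latter was −3.35. SLC35G1 was called in GLY (−1.26) and not in GLY_PUE (−0.76, SE 0.44, adjusted p = 0.122), and the GLY call was lost without untreated replicate 1 (−1.16).

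The carriers of organic ions, bile acids and peptides held 3 of the 9 members that rose. Of 8 tested, 3 rose and 3 fell with GLY and with GLY_PUE, and under TMM 4 rose and none fell in either. SLC22A15, an organic cation and zwitterion carrier, had 1.49, 1.41 and 0.97 FPKM in untreated, 1.48, 3.8 and 6.49 in GLY and 4.19, 4.16 and 7.43 in GLY_PUE libraries. By FPKM GLY replicate 1 lay at the level of the untreated libraries, and the number 3 libraries of both treated groups were highest (1.63, SE 0.44, adjusted p = 0.00592, and 2.05, SE 0.45, adjusted p = 0.00195; 2.66 and 3.02 under TMM). Without GLY replicate 3 the GLY value was 1.02.

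SLCO2A1, the prostaglandin transporter, and SLCO5A1, whose substrate is not settled, rose from very low levels. SLCO2A1 had 0.09, 0.13 and 0.02 FPKM in untreated, 0.24, 0.29 and 0.16 in GLY and 0.2, 0.17 and 0.22 in GLY_PUE libraries, which are 2 to 8 reads in untreated and 12 to 22 in GLY (1.52, SE 0.47, adjusted p = 0.0108, and 1.38, SE 0.47, adjusted p = 0.0192). The GLY_PUE call was lost without GLY_PUE replicate 1 (1.32) or untreated replicate 3 (0.98). SLCO5A1 had 0.1, 0.09 and 0.09 FPKM in untreated, 0.17, 0.16 and 0.52 in GLY and 0.21, 0.27 and 0.39 in GLY_PUE libraries, with no overlap (1.27, SE 0.37, adjusted p = 0.00866, and 1.49, SE 0.37, adjusted p = 0.00417). SLCO1B3, a bile acid and drug carrier of the liver, had 0.48, 0.6 and 0.27 FPKM in untreated, 0.5, 0.97 and 1.14 in GLY and 0.92, 0.99 and 0.79 in GLY_PUE libraries. It did not pass under library totals (0.97, SE 0.48, adjusted p = 0.0761, and 1.01, SE 0.48, adjusted p = 0.0708), passed in GLY without GLY replicate 1 (1.25) and was called under TMM (2.03 and 1.99).

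The 3 that fell were SLC47A1, SLC22A23 and SLCO1A2. SLC47A1, or MATE1, which expels organic cations against protons, had 1.04, 1.17 and 3.21 FPKM in untreated and 0.6, 0.73 and 0.69 in GLY libraries (−1.41, and −1.23 in GLY_PUE). Untreated replicate 3 and PUE replicate 3 stood high. Without untreated replicate 3 the calls were lost (−0.70 and −0.52), and in GLY_PUE also without GLY_PUE replicate 1 (−1.14) or 2 (−1.12). SLC22A23 went from 2.49, 2.47 and 2.23 to 1.73, 1.81 and 1.16 FPKM in GLY and 1.43, 1.14 and 1.32 in GLY_PUE libraries (−1.04, SE 0.22, and −1.03, SE 0.22), and TMM turned the sign in GLY (0.13). SLCO1A2 fell by 0.92 and 0.81 on the log2 scale, with the other sign under TMM (0.20 and 0.20). The peptide carrier SLC15A2 did not pass (−0.67 and −0.53).

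Beside 64.6% lower of all tested genes in GLY and 57.1% in GLY_PUE, 7 of 9 mitochondrial carriers fell and none rose with GLY. The same counts held for GLY_PUE, but under TMM 1 fell in each. That gene was SLC25A12, the aspartate-glutamate carrier of the malate-aspartate shuttle. It had 7, 7.11 and 7.11 FPKM in untreated, 6.5, 6.92 and 7.06 in PUE, 1.43, 2.32 and 2.1 in GLY and 2.13, 2.3 and 1.84 in GLY_PUE libraries. Untreated and PUE libraries lay between 6.5 and 7.11 and the others at 2.32 or below (−1.86, SE 0.24, adjusted p = 8.4e-05, and −1.78, SE 0.24, adjusted p = 0.00012; −0.75 and −0.77 under TMM). SLC25A40, which supports glutathione import into mitochondria, had 10.9, 11.5 and 17.0 FPKM in untreated, 1.06, 4 and 5.53 in GLY and 4.41, 4.7 and 5.13 in GLY_PUE libraries. GLY replicate 1 was the lowest of the 12 (−1.90, SE 0.45, adjusted p = 0.00275, and −1.47, SE 0.44, adjusted p = 0.0104).

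SLC25A48, linked to choline transport into mitochondria, fell from 0.73, 0.88 and 0.69 to 0.49, 0.13 and 0.31 FPKM in GLY and 0.15, 0.26 and 0.24 in GLY_PUE libraries (−1.55, SE 0.33, and −1.74, SE 0.34). SLC25A23, a calcium-regulated carrier of ATP-magnesium and phosphate, fell in both (−0.95 and −1.04), and TMM gave 0.26 and −0.02. Its paralog SLC25A24 had 1.33, 13.3 and 14.9 FPKM in GLY against 17.3, 17.6 and 23.2 in untreated libraries and did not pass in GLY (−0.98, SE 0.58, adjusted p = 0.126) or in GLY_PUE (−0.63). GLY replicate 1 was far below the other two, and without it SLC25A24 passed with −0.45. SLC25A1, the citrate carrier that supplies fatty acid synthesis, went the other way in that library, at 30.4, 14.4 and 10.4 FPKM in GLY against 29.2, 28.1 and 31.6 in untreated. It passed in GLY_PUE (−1.07, SE 0.33, adjusted p = 0.0123) and not in GLY (−0.69, SE 0.33, adjusted p = 0.0649), where it passed without GLY replicate 1 (−1.27). SLC25A30 was called in GLY (−1.33), and in GLY_PUE (−0.88) it did not pass, but did so with the replicate block (−0.88, adjusted p = 0.0479). SLC25A35 and SLC25A53 fell in both, by 1.06 and 1.36 in GLY and by 1.02 and 1.12 in GLY_PUE on the log2 scale, with 0.10 and −0.18 in GLY under TMM.

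All 7 carriers of vitamins, choline and heme fell with GLY, and 6 with GLY_PUE, whereas under TMM SLC44A1 alone fell in GLY and none in GLY_PUE. Of all tested genes 64.6% fell with GLY and 57.1% with GLY_PUE, and 10.1% and 11.5% under TMM. SLC44A1, a choline carrier that feeds phosphatidylcholine synthesis, had 15.3, 15.3 and 20.3 FPKM in untreated, 1.2, 6.42 and 5.61 in GLY and 5.76, 6.59 and 4.6 in GLY_PUE libraries. GLY replicate 1 was lowest and no treated library came near the untreated ones (−1.84, SE 0.32, adjusted p = 0.000527, and −1.52, SE 0.32, adjusted p = 0.00159; −0.75 and −0.50 under TMM). SLC52A3, a riboflavin carrier of the gut, had 9.32, 9.86 and 10.4 FPKM in untreated, 4.6, 2.97 and 2.55 in GLY and 3.33, 3.11 and 2.77 in GLY_PUE libraries (−1.53, SE 0.25, adjusted p = 0.000351, and −1.63, SE 0.25, adjusted p = 0.000255). SLC48A1, which carries heme out of lysosomes, had 47.7, 51.2 and 49.0 FPKM in untreated, 40.8, 24.3 and 17.7 in GLY and 23.6, 25.1 and 18.8 in GLY_PUE libraries. The groups did not overlap (−0.82, SE 0.27, adjusted p = 0.0155, and −1.11, SE 0.27, adjusted p = 0.00379), but the GLY call was lost without GLY replicate 2 (−0.73) or 3 (−0.59) and had the other sign under TMM (0.41).

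The other choline-like carriers SLC44A3 and SLC44A5 were below 2 FPKM. SLC44A3 fell in both (−1.92 and −1.69). SLC44A5 was called in GLY (−1.50), and that call was lost without GLY replicate 1 (−1.08), GLY replicate 2 (−1.47) or untreated replicate 3 (−1.11), and stood at −2.15 without GLY replicate 3. In GLY_PUE it passed with the replicate block (−0.90, adjusted p = 0.014). SLC46A3, a lysosomal carrier, had 1.23, 1.22 and 1.8 FPKM in untreated, 0.14, 0.31 and 0.73 in GLY and 0.31, 0.17 and 0.74 in GLY_PUE libraries (−2.01 and −1.76). It was −2.83 without GLY replicate 3 and −2.55 without GLY_PUE replicate 3, and the GLY_PUE call was lost without GLY_PUE replicate 1 (−1.58) or 2 (−1.40). SLC23A3, of the ascorbate family, fell by 1.82 in GLY and by 1.01 in GLY_PUE on the log2 scale at under 0.3 FPKM. The latter call was lost without GLY_PUE replicate 1 (−0.96) or 2 (−0.84) or untreated replicate 2 (−0.81) or 3 (−0.96).

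Of 5 sugar carriers 3 fell with GLY and 2 with GLY_PUE, none rose, and none was called under TMM. SLC2A12, a facilitative glucose carrier, had 0.59, 0.54 and 0.97 FPKM in untreated, 0.2, 0.27 and 0.34 in GLY and 0.33, 0.33 and 0.28 in GLY_PUE libraries (−1.39, SE 0.35, adjusted p = 0.00375, and −1.16, SE 0.34, adjusted p = 0.00971). SLC2A4, the insulin-responsive GLUT4, was under 1 FPKM (−1.48 and −1.18). Its GLY call was lost without GLY replicate 1 (−1.33), GLY replicate 2 (−1.32) or untreated replicate 3 (−0.86), and its GLY_PUE call without GLY_PUE replicate 1 (−1.005), GLY_PUE replicate 2 (−1.01) or untreated replicate 3 (−0.56).

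SLC2A14 is a near copy of SLC2A3, so its reads are uncertain, and it was called in GLY (−1.54, SE 0.43, adjusted p = 0.00636) and, with the replicate block, in GLY_PUE (−0.87, adjusted p = 0.03). SLC5A3, which takes up myo-inositol, had 6.9, 6.27 and 11.2 FPKM in untreated, 0.64, 5.01 and 5.05 in GLY and 4.76, 5.82 and 4.77 in GLY_PUE libraries. GLY replicate 1 was the lowest. SLC5A3 did not pass (−1.19, SE 0.55, adjusted p = 0.0604, and −0.67, SE 0.55, adjusted p = 0.259). In GLY it passed without GLY replicate 1 (−0.69) or 3 (−1.52). SLC2A10 did not pass either (−1.07 and −0.89). It passed without GLY replicate 3 (−1.79) in GLY, and in GLY_PUE without GLY_PUE replicate 3 (−1.37) or with the replicate block (−0.99, adjusted p = 0.0246).

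The remaining classes held 1 or 2 members. SLC17A5, or sialin, which exports sialic acid from lysosomes, fell from 8.57, 8.27 and 11.7 to 1.94, 3.97 and 5.18 FPKM in GLY and 3.61, 3.67 and 4.63 in GLY_PUE libraries (−1.36, SE 0.33, adjusted p = 0.00342, and −1.26, SE 0.33, adjusted p = 0.00552; −0.26 and −0.24 under TMM). SLC18A2, the vesicular monoamine carrier, had 1.75, 1.71 and 2.29 FPKM in untreated and 0.31, 1 and 1.55 in GLY libraries. Its GLY call (−1.01, SE 0.43, adjusted p = 0.0435) was lost without GLY replicate 1 (−0.59) or 2 (−1.04) and without untreated replicate 1 (−1.07), 2 (−1.08) or 3 (−0.86). SLC34A3, a sodium-phosphate carrier of the kidney, had 0.26, 0.34 and 0.48 FPKM in untreated, 0.27, 0.07 and 0.07 in GLY and 0.02, 0.09 and 0.11 in GLY_PUE libraries. It passed in GLY_PUE (−2.23, SE 0.67, adjusted p = 0.0107) and not in GLY (−1.41, SE 0.63, adjusted p = 0.0508), where it passed without GLY replicate 1 (−2.38). SLC29A4, a carrier of monoamines and adenosine, was called in GLY_PUE (−1.11, SE 0.43, adjusted p = 0.0328) and not in GLY (−0.88, SE 0.43, adjusted p = 0.0676), where it passed without GLY replicate 1 (−1.66). That GLY_PUE call was lost without GLY_PUE replicate 2 (−0.98) or 3 (−1.06) or untreated replicate 1 (−1.05), 2 (−1.10) or 3 (−1.17). The sodium-calcium exchanger SLC24A2 stayed at or below 0.06 FPKM in all 12 libraries and was not tested.

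Ratios of genes within a library do not depend on how libraries are scaled, and 4 were taken after the values had been seen. They are given as a description. SLC3A2 over its light chain SLC7A8 stood at 3.46, 3.35 and 1.52 in untreated, 3.12, 3.08 and 1.66 in PUE, 47.9, 36.0 and 39.0 in GLY and 40.4, 32.0 and 32.7 in GLY_PUE libraries. SLC3A2 over SLC1A5 was 0.529, 0.511 and 0.258 in untreated and 1.74, 1.74 and 1.57 in GLY libraries, so the order of the 2 most abundant transporters was the reverse in each GLY library, and in each GLY_PUE library (1.83, 1.71 and 1.39). The treated libraries lay above the untreated and PUE libraries for all 4 ratios. SLC16A4 over SLC16A6 was 0.0711, 0.0774 and 0.0411 in untreated and 0.715, 0.569 and 1.03 in GLY libraries, and SLC39A13 over SLC39A8 1.46, 1.51 and 0.895 and 14.6, 4.54 and 4.26. GLY replicate 1 had the highest SLC39A13 over SLC39A8 ratio of all libraries.

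**Figure D3:**
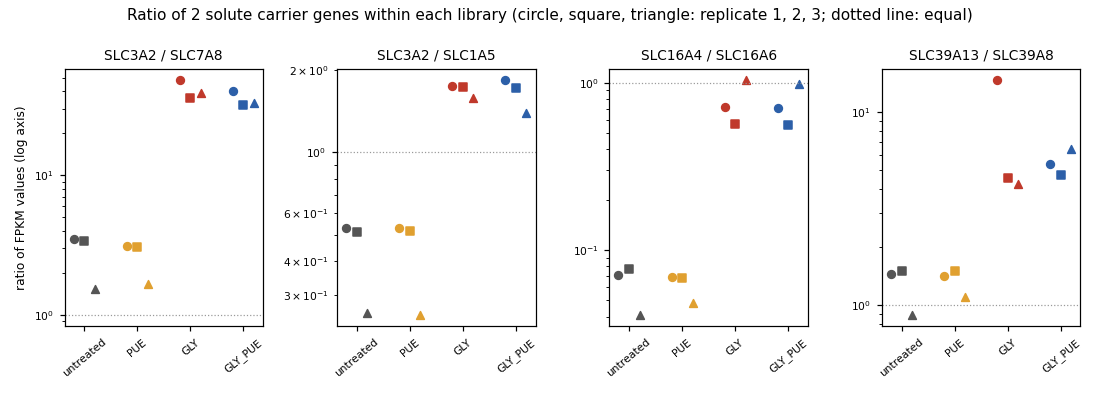
Ratio of the FPKM values of 2 solute carrier genes within each library (y axis, log scale, dotted line at equal levels), by group (x axis), for 4 pairs chosen after their values were seen. Circle, square and triangle are replicates 1, 2 and 3. SLC3A2 over SLC1A5 lies below 1 in the 6 untreated and PUE libraries and above 1 in the 6 GLY and GLY_PUE libraries.

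GLY replicate 1 stood apart in a pattern that followed base composition. Against the mean of GLY replicates 2 and 3, 20 of the 68 members were more than 2-fold lower in it and 4 more than 2-fold higher, on the scale of CPM with 0.5 added, where 24.4% and 2.97% of all tested genes were. The log2 of this ratio correlated with the GC content of the longest GENCODE transcript (Pearson's r = 0.75, Spearman's rho = 0.78 over 68 members, which share the library; 0.72 and 0.74 over 3299 genes with a transcript). On that scale the lowest were SLC25A24, SLC5A3 and SLC4A7, and the 4 past 2-fold higher were SLC27A3, SLC25A1, SLC29A4 and SLC30A3. By FPKM with nothing added, the scarce SLC34A3 differed most in that direction among the 68. The same log2 ratio had r = −0.33 over members and −0.41 over all genes with the log2 length of that transcript. The GLY fold change itself had r = 0.12 and rho = 0.20 with GC content over members, and −0.10 and −0.18 without GLY replicate 1. This library is also the GLY library labelled 12 h, where the other two carry 13 and 14 h, so the label and the library cannot be told apart. Without it 60 of 68 members were called in GLY. Leaving it out added the calls of SLC25A1, SLC25A24, SLC29A4, SLC30A3, SLC34A3, SLC4A7, SLC5A3 and SLCO1B3 and lost those of SLC16A9, SLC18A2, SLC2A4 and SLC44A5. Leaving out the libraries numbered 3 in all groups left 47 called in GLY and 46 in GLY_PUE. For these settings the shares of all tested genes are not given here, so the counts describe the members alone.

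**Figure D4:**
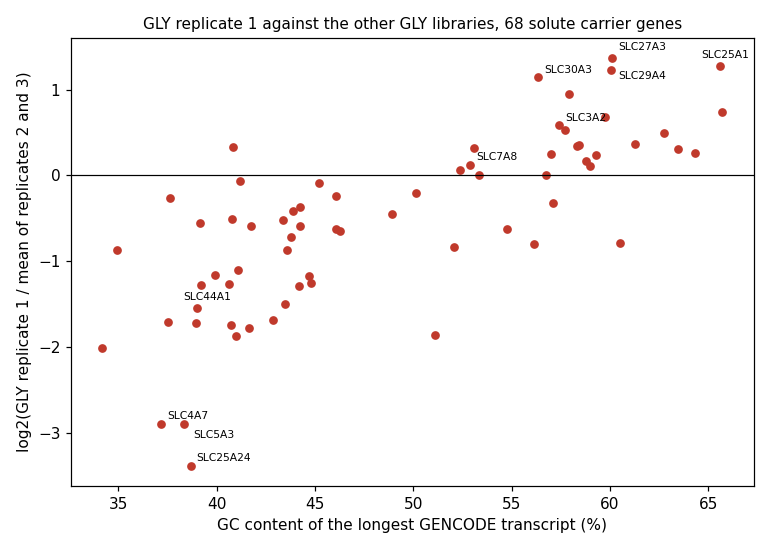
Log2 ratio of GLY replicate 1 to the mean of GLY replicates 2 and 3 (y axis) against GC content of the longest GENCODE transcript in percent (x axis) for the 68 tested solute carrier genes, each a point. Genes of low GC content lie mostly below 0, those of high GC content near or above it (r = 0.75), and SLC25A24 is the lowest.

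PUE alone gave no call among the transporters. None of 68 passed with edgeR, none had an unadjusted p under 0.05, and none was called by DESeq2, limma-voom or limma on FPKM (all tested genes, 0% called). The smallest adjusted p was 1.00, the median log2 fold change was 0.01, and the groups of 1 member did not overlap in scaled counts, SLCO1A2, where 3.3% of all genes did. By FPKM those of SLC22A23 did not overlap either. The 95% interval lay within 1 log2 unit of 0 for 47 of the 68. For the other members it reached past that size in at least 1 direction, so a change of that size is not excluded for them. The 3 members with the smallest p were SLC9A5, at 0.3, 0.3 and 0.4 FPKM in untreated and 0.31, 0.64 and 0.82 in PUE libraries (0.66, interval −0.18 to 1.51), SLC15A2 (0.52, interval −0.25 to 1.29) and SLCO1B3 (−0.63, interval −1.74 to 0.47). All 3 were below 1 FPKM in the untreated and PUE libraries. For the abundant carriers the intervals were narrower, −0.46 to 0.49 for SLC1A5 and −0.40 to 0.55 for SLC7A8.

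Adding PUE to GLY gave no call either. None of 68 members passed in GLY_PUE against GLY and none had an unadjusted p under 0.05 (0% of all tested genes called; smallest adjusted p among members 0.959), and no other tool called one. The groups of 2 members did not overlap, SLC35E3 and SLC23A3, where 4.81% of all genes did. The median log2 fold change was 0.21 for members and 0.11 for all tested genes, and 0.10 for members under TMM. The interval lay within 1 log2 unit of 0 for 30 of the 68. The smallest p-values were those of SLC9A3 (0.46, interval −0.17 to 1.09), SLC23A3 (0.81, interval −0.24 to 1.85) and SLC2A14 (0.64, interval −0.30 to 1.58). The interaction of GLY and PUE, which asks whether PUE acted differently with and without GLY, was called for no member, with no unadjusted p under 0.05. The 10 members called in GLY and not in GLY_PUE, and the 4 called in GLY_PUE and not in GLY, are therefore not shown to differ between the treatments.

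Against PUE, GLY_PUE gave a split like that against untreated. Of 68 members 42 fell and 10 rose, where 57.3% of all tested genes fell, 20.6% rose and 77.8% were called either way, and 63 did not overlap (87.8% of all genes). SLC7A8 was at −2.97 (SE 0.24) and SLC3A2 at 0.85. The tenth that rose here was SLCO1B3 (1.64, SE 0.50, adjusted p = 0.0111). Under TMM 11 rose and 6 fell, where 24.2% and 11.7% of all tested genes did. GLY_PUE enters both comparisons, so their likeness is not a second observation.

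**Figure D5:**
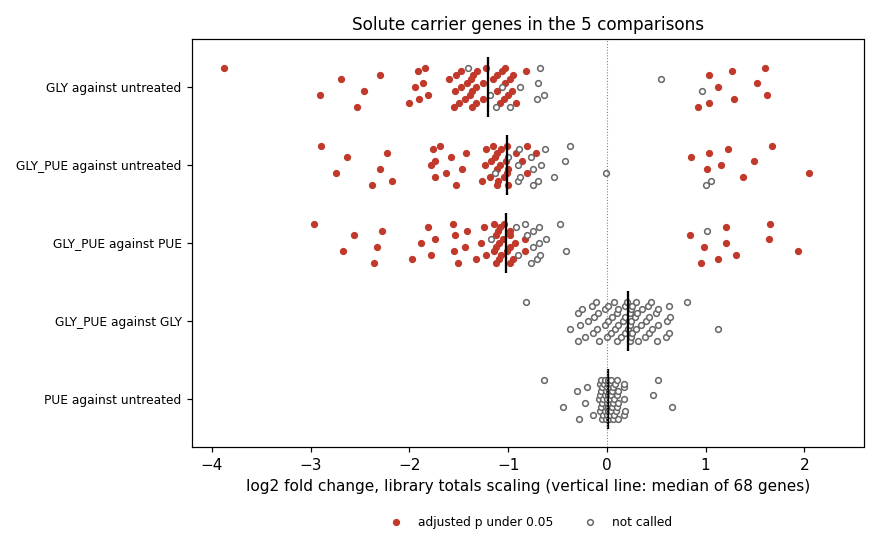
Log2 fold change (x axis, library totals scaling) of the 68 tested solute carrier genes in 5 comparisons (y axis), with filled points at an adjusted p under 0.05 and a vertical line at the median. The medians are −1.20, −1.01 and −1.02 in the 3 comparisons that add GLY and 0.21 and 0.01 in the 2 that add PUE, where no point is filled.

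Other transport genes in the table were counted in the same way, and those named were chosen after their values were seen. For GLY the counts stand beside 64.6% lower and 19.7% higher of all tested genes (median −1.15), and for GLY_PUE beside 57.1% and 20.2%. Of 9 tested ABC transporters, the pumps that use ATP, 7 fell and none rose with GLY (median −1.25), led by the sterol exporter ABCG1 (−3.34), and under TMM 1 fell. Of 14 genes taken by symbol as pumping ATPases 9 fell and 2 rose (median −1.12), and under TMM 3 rose and none fell. Among them were ATP1B1, a subunit of the sodium pump (−1.16), and ATP8A2, a lipid flippase (1.87). The 14 include ATP6V1FNB (−1.71, called lower), which is named as the neighbour of a pump gene and is not itself a pump. Of 8 tested relatives and partners of solute carriers 5 fell and 2 rose. MFSD2A (1.47), a lysolipid carrier, and MFSD12 (1.47), a lysosomal carrier, rose. TMEM165 (−2.08), a Golgi manganese carrier, and SV2A (−1.97), a synaptic vesicle protein, fell. Of 25 glycolysis genes 2 were listed, and hexokinase 2 (HK2) was at 1.69 and PFKFB1 at −2.00. With GLY_PUE the counts were 4 lower of 9 ABC transporters and 6 lower and 2 higher of the 8 relatives. Of the 14 genes with ATPase symbols, ATP6V1FNB again among those called lower, 10 were lower and 3 higher.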

How the data were processed

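RNA libraries from 12 SW480 samples (the line given in the labels' cell line field) were sequenced on a BGISEQ-500, per the labels. The authors deposited 1 table of selected genes with an estimated count and an expression value, read as FPKM, per gene and library, and with log2 ratios and q-values for their comparisons. The header gives no unit for the expression values. That reading rests on a ratio of count to value that was nearly constant per gene, up to a library factor, for many well-covered genes but not for all. The submitters' processing notes name TopHat and DESeq 1.32.0, without a role; a build, an annotation and a counting tool are not named there.

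Estimated counts (58.2% whole) were rounded and tested with edgeR 4.0.16 (R 4.3.3; quasi-likelihood, robust, all 12 libraries, low-count filter with minimum 10). Library sizes were totals recovered from the count to FPKM ratios of 625 genes with at least 100 counts and 5 FPKM, set to an absolute scale with 39 genes of 1 GENCODE release 29 transcript. P-values were adjusted by Benjamini-Hochberg over 3429 tested genes with a threshold of 0.05. Where a gene had no read, its level could be as high as 0.155 CPM (3 counts; counting error only). The edgeR fit with library totals was tested on simulated counts in which few genes changed, equally often up and down, unlike these data. The other steps were not tested in this way.

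The transporters, their classes and the marker and comparison lists were chosen with earlier results of these data known. Named by rule were the 10 largest called changes each way per treatment, the 2 smallest p per class, the 3 smallest p in comparisons without calls, and a list of well-known transporters, 38 genes in all, of which 1 is counted but not otherwise reported here. The other genes were named after their values were seen. Replicate numbers come from the sample titles. Same-numbered libraries deviated together beyond a correlation of 0.1 in 15 of 18 pairs (0.04 to 0.82), in all 3 pairs of each comparison except GLY against untreated, where they were 0.07, 0.10 and 0.30. Alternatives were TMM, DESeq2 1.42.0, limma-voom and limma 3.58.1 on log2(FPKM + 1), other filters and thresholds, a replicate block and libraries left out in turn. Python 3.11.15, pandas 2.3.3, scipy 1.17.1 and matplotlib 3.10.9 made tables and plots.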

Additional observations from a re-analysis of the deposited data

How the results depend on the processing

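The scaling mattered most. With TMM scaling, GLY against untreated gave 19 called transporters (8 lower, median −0.081), 17 in GLY_PUE against untreated (6 lower, median −0.019) and 17 in GLY_PUE against PUE (6 lower, median 0.00498). Of all tested genes TMM called 10.1%, 11.5% and 11.7% lower and 23.7%, 23.8% and 24.2% higher in these comparisons, in that order. The signs of called genes that TMM turned to above 0 were, in GLY against untreated, SLC16A1 0.023, SLC16A9 0.036, SLC18A2 0.062, SLC1A5 0.24, SLC22A23 0.13, SLC25A23 0.26, SLC25A35 0.10, SLC35E3 0.15, SLC37A1 0.023, SLC38A10 0.053, SLC48A1 0.41, SLC9A5 0.17, SLCO1A2 0.20. In GLY_PUE against untreated they were SLC30A3 0.020, SLC35E2A 0.088, SLC35E2B 0.21, SLC35E3 0.28, SLC9A3 0.15, SLCO1A2 0.20. In GLY_PUE against PUE they were SLC25A23 0.047, SLC25A30 0.046, SLC2A12 0.11, SLC30A3 0.019, SLC35E2A 0.036, SLC35E2B 0.20, SLC35E3 0.18, SLC37A1 0.044, SLCO1A2 0.045. These turns follow from the shift that TMM adds to every gene. A threshold of 0.01 left 33 calls in GLY_PUE against untreated, 25 of them lower. The other counts of calls stayed within 1.5 times under the other tools, filters and thresholds run. Leaving out 1 library gave 46 to 60 calls in GLY (38 to 49 lower), 38 to 50 in GLY_PUE against untreated (30 to 41 lower), 40 to 48 in GLY_PUE against PUE (31 to 39 lower), and 0 in PUE and in GLY_PUE against GLY. With a replicate block 62, 56 and 57 transporters were called in these 3 comparisons and none was lost. In GLY against untreated the block added SLC2A10, SLC1A1, SLC5A3, SLC30A3, SLC29A4 and SLC25A1. The same-numbered libraries of these 2 groups correlated at 0.07, 0.10 and 0.30, so whether they are paired is not settled by the check made. Over all groups 9 of the 12 libraries correlated best with their own number. In GLY_PUE against PUE it added SLC2A10, SLC1A1, SLC16A9, SLC23A3 and SLC44A5. Beside these and the GLY_PUE gains given with the genes, the block changed no other call. For the libraries left out and for the block, shares of all tested genes are not given here. With 3 libraries a group and a median SE of 0.37 on the log2 scale, differences of under 1 log2 unit could be missed for many transporters. Those under 1 FPKM rest on few reads.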
